A study of Mus musculus with 4 samples.

Results

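Oxidative phosphorylation is the process by which mitochondria pass electrons from NADH and succinate along the respiratory chain and use the resulting proton gradient to make ATP. Complex I takes electrons from NADH and complex II takes them from succinate, complex III passes them to cytochrome c, complex IV hands them to oxygen, and complex V is the ATP synthase. The proximal tubule and the thick ascending limb of the kidney hold many mitochondria, because reabsorption of salt and solutes consumes ATP. Most subunits are encoded in the nucleus and a few in mitochondrial DNA. Some subunits of complex IV have a general form and a second form found mainly in heart, skeletal muscle or brown fat, or in testis.

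The nuclear-encoded members were taken by name: every non-control probe listed under a gene name beginning with Nduf, Uqcr or Atp5, or with Cox and a digit from 4 to 8, together with Sdha, Sdhb, Sdhc, Sdhd and Cyc1. This gave 138 of 55681 probes, for 94 gene names. A change of annotation between slides at 1 probe made them 95 genes of 34607 on the array, with 46 in complex I, 4 in complex II, 9 in complex III, 18 in complex IV and 18 in complex V. Of the 95, 84 were subunits and 11 were other genes taken by the prefix (Ndufaf1 to Ndufaf7, which are complex I assembly factors, Atp5s, Atp5sl, the pseudogene Atp5c1-ps and the predicted gene Gm6444). Values were available for 93 genes, all of them well above background on all 4 arrays. The remaining pair, Cox7b2 and Cox8c, which are testis forms of complex IV subunits, were well above background on 0 arrays and no fold is given for them.

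RNA of whole kidney from female BALB/C mice, 6 weeks old at the start, was measured on 1-colour Agilent arrays, with 2 MN arrays and 2 control arrays. MN stands for experimental membranous nephropathy, a glomerular disease in which immune complexes lie along the outer side of the filter. Mice of both groups were immunized with 0.2 mg of cationic bovine serum albumin (cBSA) in complete Freund's adjuvant. From 2 weeks later, MN mice were given 13 mg/kg of cBSA intravenously 3 times weekly for 6 weeks, and control mice were given vehicle, which the labels call saline in one place and PBS in another. The immunization is therefore common to both groups. Nothing in the labels says whether the arrays hold RNA of separate animals, so p-values measure only the spread between these samples, which may be technical. Levels below are log2 of the processed signal relative to the 75th percentile of the same array, so a level of 0 equals that percentile, and differences are MN minus control.

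Replicate 1 of both groups was on slide 1 and replicate 2 on slide 2, and each slide had a scan of its own. The 2 control arrays were less alike than the MN arrays in detection: 64.0% and 63.1% of spots were well above background on MN arrays 1 and 2, against 65.9% and 79.5% on control arrays 1 and 2. Control array 2 therefore stands apart in detection, and values without it are given where they matter. In brightness MN array 2 stood apart. Its 75th percentile signal was 1204, against 767 on MN array 1 and 737 and 818 on control arrays 1 and 2. Its median signal over background was 5.40, against 3.39 on MN array 1 and 3.26 and 3.55 on control arrays 1 and 2. The spike-in controls fitted a slope of 0.895 on both arrays of slide 1, and on slide 2 of 0.968 for MN and 0.949 for control.

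The first comparison asked whether the subunits differed between MN and control kidneys. None of the 93 members passed the test (limma, adjusted p under 0.05), in a comparison in which 5 of 25296 genes did, 0.0198% of all genes, all 5 of them higher in MN. At an unadjusted p under 0.05 there were 2 members of 93 (2.15%), against a background of 7.03% of all genes. Both were alternative forms of complex IV subunits: Cox8b was higher in MN (background in that direction 3.54%), and Cox6a2 was lower in MN (background 3.49%). With the slide as a block the number of genes passing was 0, the number of genes at an unadjusted p under 0.05 was 3879, and Cox8b and Cox6a2 were again the 2 members among them. In whole-kidney RNA, fewer cells of a type and less RNA per cell cannot be told apart.

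Differences of the other members were small on the scale of these arrays. The absolute difference was under 0.3 on the log2 scale for 91 of 93 members (97.8%), against 75.5% of all genes and 92.6% of the 1542 genes with a mean level above 5. The median difference was -0.09, against -0.05 for all genes and -0.07 for those 1542 genes. It was -0.08 in complex I, -0.13 in complex II, -0.07 in complex III, -0.13 in complex IV and -0.09 in complex V. Members below 0 numbered 71 of 93 (76.3%), against 61.4% of all genes and 73.8% of the genes above level 5. Under quantile normalization the median of the members was 0.01 and that of all genes -0.02, with complexes I to V at 0.01, -0.04, 0.02, 0.02 and 0.03, so the sign of the shift depends on the scaling.

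The slides did not share the shift. The median over the members was 0.01 within slide 1 and -0.14 within slide 2, where the medians of all genes were -0.02 and -0.08 and those of the genes above level 5 were -0.01 and -0.13. Members below 0 on both slides numbered 41 of 93 (44.1%), against 40.1% of all genes and 44.7% of the genes above level 5. The median was 0.05 without MN replicate 1, -0.18 without MN replicate 2, -0.26 without control replicate 1 and 0.13 without control replicate 2. Both MN arrays lay below both control arrays for 11 members (11.8%, against 19.9% of all genes and 15.6% of those above level 5), and both lay above for 5 members (5.38%, against 13.2% and 4.8%). The members' shares were thus nearer to those of genes of like level than to those of all genes.

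**Figure D1:**
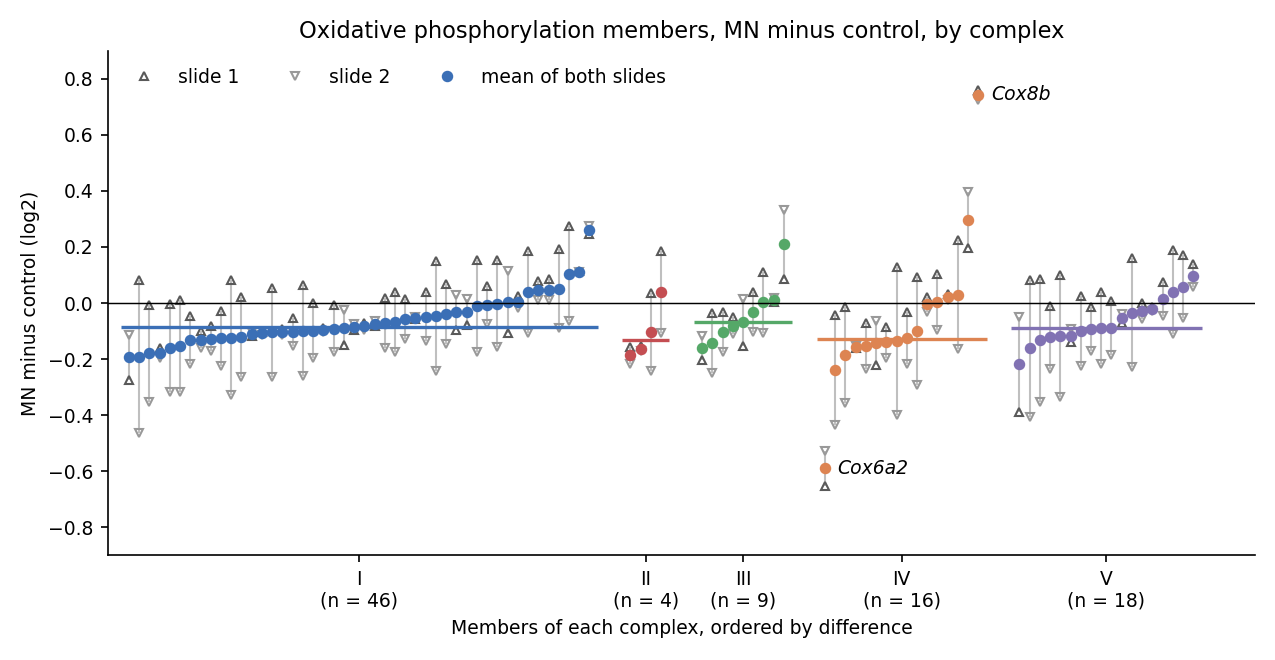
Difference between MN and control on the log2 scale for the 93 members with values, grouped by complex I to V and ordered within each; filled circles are the mean of both slides, open triangles the difference within slide 1 (pointing up) and slide 2 (pointing down), and horizontal lines the complex medians. Cox8b, at 0.74, and Cox6a2, at -0.59, lie outside the band that holds the other members.

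The precision differed between members. The 95% interval of the difference lay within 1.5-fold either way for 33 of 93 members and within 2-fold either way for 74. The standard error ranged over the members from 0.13 to 0.83, and its median was 0.19 in complex I and 0.33 in complex V. With the slide as a block these medians were 0.11 and 0.11. A p that misses the threshold does not show that the level was the same.

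Complex I, the entry point for NADH, had 46 members with values, between -0.19 and 0.26. Ndufv1, which binds the flavin that accepts electrons from NADH, was at 6.28 and 6.69 on the MN arrays, against 6.44 and 6.88 on the control arrays (difference -0.18 ± 0.25, SE). Both MN values lay below the control value of the same slide, but the groups overlapped. Like Ndufv1, the core subunits named next differed by less than their standard errors in the fit without the slide as a block. Ndufs1, an iron-sulfur subunit, was at 6.07 and 6.16 in MN, against 6.17 and 6.27 in control (-0.11 ± 0.14), both MN values lying below both control values. Ndufs8, another iron-sulfur subunit, was at 4.22 and 4.39 in MN, against 3.94 and 4.46 in control (0.11 ± 0.23). Ndufv2, Ndufs3 and Ndufs7 had differences between -0.06 and -0.04.

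The largest difference in complex I was that of an assembly factor. Ndufaf4, needed to build complex I, was at 3.07 and 3.04 in MN, against 2.83 and 2.77 in control, and the groups did not overlap (0.26 ± 0.13; limma, adjusted p = 0.872). At its dimmer probe the groups overlapped, with 2.30 and 2.76 in MN, against 1.97 and 2.65 in control (0.22). The largest in the other direction were Ndufaf6 at -0.19 ± 0.16, Ndufaf5 at -0.19 ± 0.36 and Ndufb8, an accessory subunit of the membrane arm, at -0.18 ± 0.31. Of the 11 genes that are not subunits, 5 were above 0 and 6 below, with a median of -0.07. Ndufa4l2, a relative of Ndufa4 known from hypoxia studies, was at 0.14 and 0.27 in MN, against 0.03 and 0.17 in control (0.11 ± 0.15). Ndufa4 itself, now assigned to complex IV in the literature and kept here under its name prefix, was at 6.20 and 6.39 in MN, against 6.05 and 6.55 in control.

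Ndufb11 and Gm6444 could not be read separately. The probe of Gm6444 was listed as Ndufb11 in the annotation of slide 1, and it shared a run of 55 of its 60 bases with a probe of Ndufb11. Their differences were -0.16 ± 0.23 for the Gm6444 probe and -0.13 ± 0.26 for Ndufb11. Of all 138 member probes, 23 (16.7%) held a run of 20 bases that a probe of another gene also held, against 14.6% of all probes on the array.

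Complex II, succinate dehydrogenase, is also an enzyme of the tricarboxylic acid cycle and has 4 subunits, all nuclear. Sdha, the flavin subunit, was at 6.03 and 5.93 in MN, against 5.84 and 6.04 in control (0.04 ± 0.15). Sdhb, the iron-sulfur subunit, was at 6.60 and 7.19 in MN, against 6.76 and 7.41 in control (-0.19 ± 0.34). Sdhc, a membrane anchor, was at 5.80 and 5.69 in MN, against 5.96 and 5.86 in control (-0.16 ± 0.14). The Sdhc values in MN were below both control values, which was not so for the other 3 subunits. The dimmer Sdhc probe was at 5.58 and 5.48 in MN, against 5.61 and 5.51 in control (-0.03), with overlapping groups. Sdhd, the other anchor, had a difference of -0.10 ± 0.17.

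Complex III passes electrons from ubiquinol to cytochrome c. Uqcrfs1, the Rieske iron-sulfur protein, was at 6.09 and 6.26 in MN, against 6.01 and 5.92 in control, without overlap (0.21 ± 0.15; limma, adjusted p = 0.983). It was the highest difference of the complex with each gene read from its brightest probe. Cyc1, cytochrome c1, was at 6.51 and 6.69 in MN, against 6.66 and 6.68 in control (-0.07 ± 0.15). The core proteins Uqcrc1 and Uqcrc2 had differences of 0.01 ± 0.26 and -0.08 ± 0.18, and the small subunits Uqcrb, Uqcrq and Uqcr11 of -0.16 ± 0.34, -0.14 ± 0.48 and -0.10 ± 0.20. Over all their probes, differences ran from -0.16 to 0.23 for Uqcrb, from -0.14 to 0.18 for Uqcrq and from -0.11 to -0.10 for Uqcr11.

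Complex IV, cytochrome c oxidase, held both members with an unadjusted p under 0.05. Cox8b is the form of subunit 8 known from heart, skeletal muscle and brown fat of rodents. Its level was 4.43 and 4.30 in MN, against 3.67 and 3.57 in control. Both MN arrays were above both control arrays, and the difference was 0.76 within slide 1 and 0.73 within slide 2. The mean was 4.37 ± 0.09 in MN and 3.62 ± 0.07 in control (SD, n = 2 each). The difference was 0.74 ± 0.14 (SE; 1.67-fold, 95% interval 0.34 to 1.14 on the log2 scale), which did not pass after adjustment over all genes (limma, adjusted p = 0.421; unadjusted p = 0.00665). The difference was 0.68 to 0.81 with 1 array left out in turn, and the unadjusted p was then under 0.05 in all but the fit without MN replicate 1. With the slide as a block the adjusted p was 0.176.

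Cox6a2 is the form of subunit 6a known from heart and skeletal muscle. Its level was 0.53 and 0.69 in MN, against 1.18 and 1.22 in control. Both MN arrays were below both control arrays, with a difference of -0.65 within slide 1 and -0.53 within slide 2. The mean was 0.61 ± 0.11 in MN and 1.20 ± 0.03 in control (SD, n = 2 each). The difference was -0.59 ± 0.14 (SE; 0.665-fold, 95% interval -0.99 to -0.19), and it did not pass either (limma, adjusted p = 0.520; unadjusted p = 0.0148). With 1 array left out in turn it was -0.67 to -0.51, and the unadjusted p was not under 0.05 in any of these 4 fits. With the slide as a block the adjusted p was 0.200.

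The probes of both genes lie on mouse chromosome 7 (mm9, minus strand), that of Cox8b at 148084852 to 148084911 and that of Cox6a2 at 135349160 to 135349219. The first 30 bases of each 60-base probe are printed because these 2 genes have the largest differences among the members, and each has this probe alone.
Cox8b: ctataaaaagagctccgcagcatgaagttg
Cox6a2: agcaatcttcaaattggccttctgcacacc
Neither shared a run of 20 bases with a probe of another gene.

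The general forms of these subunits had smaller differences. Cox8a was at 7.72 and 8.17 in MN, against 7.75 and 8.39 in control (-0.12 ± 0.31), and Cox6a1 was at 8.44 and 8.73 in MN, against 8.31 and 9.13 in control (-0.13 ± 0.33). In both, the groups overlapped. Cox7a1, the muscle and brown fat form of subunit 7a, was at 4.84 and 4.93 in MN, against 4.82 and 4.96 in control (-0.0049 ± 0.14), with overlapping groups. The general form Cox7a2 was at -0.15 ± 0.19, and its relative Cox7a2l, which takes part in supercomplex assembly, at -0.16 ± 0.14. Cox6b2, the testis form of subunit 6b, was at 1.59 and 1.69 in MN, against 1.39 and 1.30 in control, without overlap (0.30 ± 0.14; limma, adjusted p = 0.838), and the general form Cox6b1 was at -0.14 ± 0.26. Cox4i2, the lung form of subunit 4 that is known to respond to oxygen, was at 0.02 ± 0.16, and the general form Cox4i1 at -0.18 ± 0.23. A test of the difference between a restricted form and its general form was not made.

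**Figure D2:**
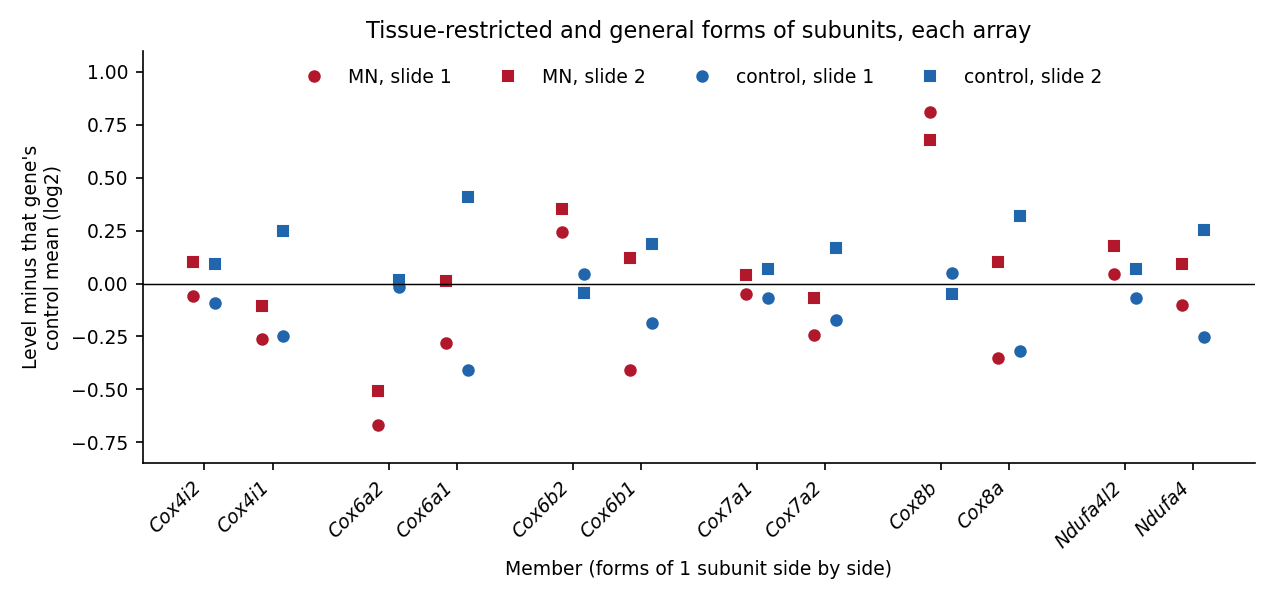
Level on each array minus the mean of the 2 control arrays of the same gene (log2), for 6 pairs of subunit forms, with MN in red left of control in blue, circles for slide 1 and squares for slide 2. Among the restricted forms, the MN points of Cox8b lie above its control points, those of Cox6a2 lie below, and those of Cox7a1 overlap.

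Markers of tissues in which Cox8b and Cox6a2 are known to be abundant were read beside them. Of 10 skeletal and heart muscle markers, 6 had values, 0 passed the test and the median difference was -0.07. Their summed linear level, in units of each array's 75th percentile, was 0.59 to 0.63 in MN and 0.60 to 0.70 in control, and Myl1 was well above background on 0 arrays. Of 7 brown adipocyte markers, 4 had values, all of them below 0, with a summed level of 1.81 to 2.10 in MN and 2.04 to 2.45 in control. Most of that sum was Cpt1b, the carnitine palmitoyltransferase of muscle and brown fat, at 0.67 and 0.52 in MN, against 0.91 and 0.58 in control. Ucp1 and Elovl3, the uncoupling protein and the elongase typical of brown fat, were well above background on 0 arrays. Of 8 white and general adipocyte markers, 2 passed, Cfd and Adipoq, both higher in MN. Adipoq and Retn were detected only on the MN arrays, and so passed the filter through MN alone. Cfd, at 1.59 and 1.99 in MN, against -5.29 and -4.98 in control, was well above background on 3 arrays. It too passed the filter through MN alone. With the dimmest detected signal of each control array in place of a lower level there, Adipoq was at least 22.9-fold higher in MN. Its test (limma, adjusted p = 0.0460) used the measured levels, undetected in control, and not that bound. With probes required to be well above background on all arrays, 0 genes passed. The list median was 1.49 with Adipoq and Retn at such bounds and 0.15 over the 6 markers without them. Of the 8 markers, 5 were above 0 and 3 below. Cidec was at 2.59 ± 0.13 (limma, adjusted p = 0.0665). The summed level was 67.1 to 68.1 in MN and 63.4 to 73.1 in control. Most of that sum was Lpl and Fabp4, at -0.12 ± 0.15 and -0.10 ± 0.15, so it says little about the dimmer markers. The part of these tissues in the values of Cox8b and Cox6a2 was not tested.

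The rest of complex IV had smaller differences. Cox5a and Cox5b, which have no second form in mammals, had differences of -0.10 ± 0.22 and 0.00 ± 0.21. Cox6c, an accessory subunit, was at 6.28 and 7.13 in MN, against 6.33 and 7.57 in control (-0.24 ± 0.55), so the MN and control values of a slide were closer to each other than the values of a group. Cox7b and Cox7c were at 0.03 ± 0.28 and -0.14 ± 0.14.

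Complex V makes ATP. Atp5b, the catalytic beta subunit, was at 7.09 and 8.12 in MN, against 7.0 and 8.47 in control (-0.13 ± 0.65). The values of slide 2 were higher in both groups. Atp5a1, the alpha subunit, was at -0.03 ± 0.50 and Atp5c1, the gamma subunit of the rotor, at -0.12 ± 0.36. Atp5g1, Atp5g2 and Atp5g3 encode the same mature subunit c and differ in their targeting peptides. Their differences were -0.10 ± 0.27, -0.05 ± 0.13 and 0.06 ± 0.32. Over all their probes, differences ran from -0.10 to 0.37 for Atp5g1 and from -0.05 to 0.25 for Atp5g2. The brighter Atp5g1 probe, which gave -0.10, shared a run of 20 bases with probes of 7 other genes. The dimmer one, which gave 0.37, shared none. With each gene read from its brightest probe, the lowest in the complex were Atp5o (-0.22 ± 0.83) and Atp5l, subunit g (-0.16 ± 0.34). Atp5o is the subunit that links the catalytic head to the stalk. The highest was Atp5sl (0.10 ± 0.13), which is not a subunit, and the highest subunit was Atp5g3.

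The members differed more between slides than between groups. Atp5o was at 4.09 and 5.89 on the MN arrays of slides 1 and 2, against 4.48 and 5.94 on the control arrays, which is a mean slide difference of 1.63. Slide 2 was above slide 1 in both groups for 76 of 93 members (81.7%), against 39.5% of all genes and 69.8% of the 1542 genes above level 5. The median of slide 2 minus slide 1 was 0.28 over the members. It was 0.02 over all genes and 0.25 over the genes above level 5. The slide difference exceeded the group difference in size for 76 of 93 members (81.7%), against 60.9% of all genes and 77.2% of those above level 5.

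Complexes differed in the size of the slide difference. Its median was 0.58 in complex V, 0.37 in complex III, 0.28 in complex IV, 0.27 in complex I and 0.12 in complex II. All 15 annotated complex V subunits were higher on slide 2 in both groups. The slide difference was -0.12 for Cox8b and 0.10 for Cox6a2, both smaller in size than the group difference of the gene. Slide, scan and replicate number coincide, so these sources cannot be told apart.

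**Figure D3:**
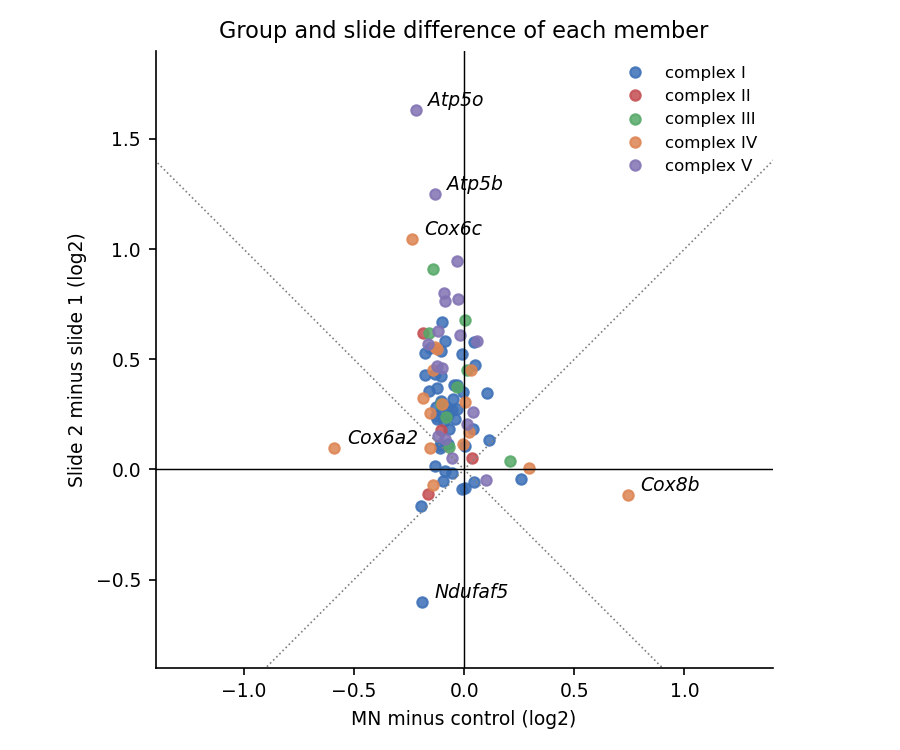
Slide 2 minus slide 1 (vertical) against MN minus control (horizontal), both log2, for the 93 members coloured by complex; the dotted diagonals mark equal size. Most members lie above the diagonals, with Atp5o at 1.63 and Atp5b at 1.25 on the slide axis, while Cox8b and Cox6a2 lie to the sides.

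Probes of the same gene did not always share a slide difference. Of 31 members with several probes that passed the filter, 10 had group differences of both signs. The slide difference ran from -0.07 to 1.45 over the 3 probes of Cox7c, a small complex IV subunit, and from 0.63 to 1.71 over those of Atp5c1. The group difference of those Cox7c probes ran from -0.22 to -0.08. For Atp5j, coupling factor 6 of the ATP synthase, the group difference was -0.03 from the brighter probe and -0.61 from the dimmer. Over all 31 genes the median span between probes was 0.11 for the group difference and 0.36 for the slide difference.

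Promoters were set beside these values because the restricted and general forms of a subunit are known to be controlled differently. RefSeq promoter windows (GRCm38.p6, 250 bases before to 50 bases after the annotated start) were found for 76 of the 95 member genes, in 82 windows. Windows were searched on both strands for 6 fixed words: the palindromic consensus of nuclear respiratory factor 1 (NRF1), by its name; CCGGAAG, the ETS family word to which GABP binds; AAGATGGC (YY1); TCAAGGTCA (ERR); TATAAA (the TATA box); and CCAAT. The NRF1 word was in 8.54% of member windows, against 1.33% of 21263 windows of protein-coding genes and 0.971% of all 32851 windows. The ETS word was in 20.7%, against 11.6% and 8.86%, and the YY1 word was in 14.6%, against 3.05% and 2.75%.

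The remaining words were the ERR word and the general promoter elements. The ERR word was in 2.44% of member windows, against 0.334% of protein-coding windows, a share that rests on 2 genes, Atp5g3 and Sdhd. TATAAA was in 9.76%, against 12.6%, and CCAAT was in 42.7%, against 38.2%. At least 1 of the NRF1, ETS, YY1 and ERR words was in 41.5% of member windows (33 of the 76 genes), against 15.4% of protein-coding windows and 12.3% of all windows. A match is a string of letters and was not tested as a binding site.

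**Figure D4:**
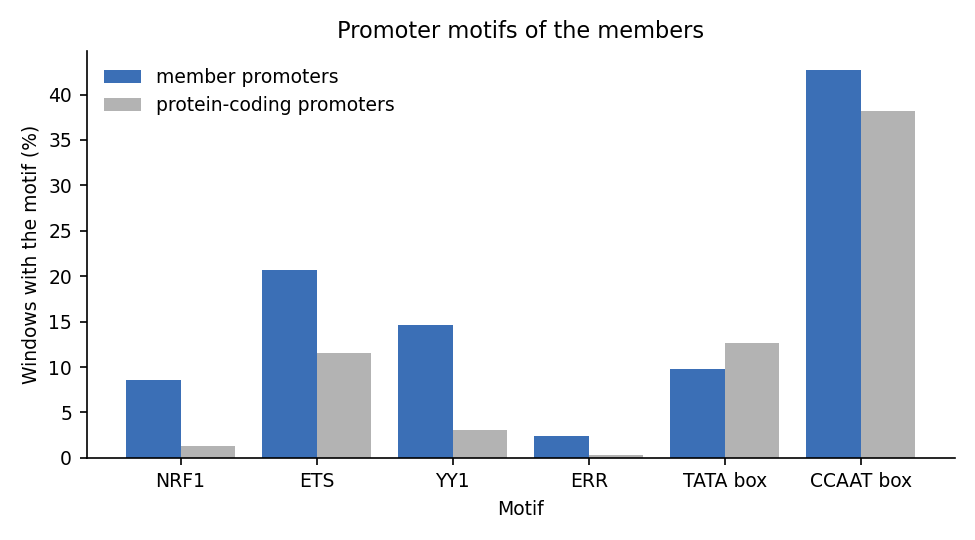
Share of promoter windows that hold each fixed word (percent), with member windows in blue left of all windows of protein-coding genes in grey. The NRF1 word is in 8.54% of member windows and 1.33% of protein-coding windows, and the YY1 word in 14.6% and 3.05%.

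The 250 bases before the annotated start are printed for the restricted forms Cox8b and Cox7a1 and for the general forms Cox8a and Cox6a1, with any of the 6 words in capitals. They run 5′ to 3′ on the strand of the gene. Cox8b lies at chr7:140900447-140900696 (minus strand), Cox8a at chr19:7217617-7217866 (minus), Cox7a1 at chr7:30183921-30184170 (plus) and Cox6a1 at chr5:115348959-115349208 (minus).
Cox8b: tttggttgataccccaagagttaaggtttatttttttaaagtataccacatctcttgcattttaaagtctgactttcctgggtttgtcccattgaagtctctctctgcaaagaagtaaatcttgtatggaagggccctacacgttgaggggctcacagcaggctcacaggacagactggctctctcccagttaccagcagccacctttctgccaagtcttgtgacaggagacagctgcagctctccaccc
Cox8a: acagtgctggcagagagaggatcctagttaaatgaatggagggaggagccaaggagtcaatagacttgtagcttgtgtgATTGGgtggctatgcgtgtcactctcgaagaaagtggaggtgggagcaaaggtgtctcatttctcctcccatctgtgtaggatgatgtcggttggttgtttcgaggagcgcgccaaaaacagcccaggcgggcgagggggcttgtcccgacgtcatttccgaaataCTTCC
Cox7a1: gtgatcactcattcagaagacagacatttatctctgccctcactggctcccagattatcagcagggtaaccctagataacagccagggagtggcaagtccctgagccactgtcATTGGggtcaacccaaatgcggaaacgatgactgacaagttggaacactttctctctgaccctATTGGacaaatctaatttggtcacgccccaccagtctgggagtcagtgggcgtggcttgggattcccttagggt
Cox6a1: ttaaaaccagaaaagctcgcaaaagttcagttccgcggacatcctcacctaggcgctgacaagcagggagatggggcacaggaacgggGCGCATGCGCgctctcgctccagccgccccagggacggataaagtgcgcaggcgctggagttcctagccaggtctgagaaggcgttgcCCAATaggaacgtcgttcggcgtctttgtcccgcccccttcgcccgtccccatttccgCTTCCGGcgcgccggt
In this stretch Cox8b held none of the 6 words, and its TATAAA begins 4 bases past the annotated start. Cox7a1 held CCAAT, read on the other strand as ATTGG, in 2 places. Cox6a1 held the NRF1 word, CCAAT and the ETS word on the other strand, CTTCCGG. Cox8a held ATTGG and a CTTCCGG that begins 5 bases before the start, so that its first 5 letters close the printed stretch.

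The other genes of the pathway came from lists. Of the 13 subunits encoded in mitochondrial DNA, which build the core of complexes I, III, IV and V, 0 passed the test and the median difference was -0.14, with 12 of 13 below 0 (61.4% of all genes and 73.8% of the genes above level 5 were below 0). The lowest was mt-Co3, a complex IV core subunit, at 7.55 and 8.25 in MN, against 7.75 and 8.46 in control (-0.20 ± 0.38). These 13 also had a slide difference, with a median of 0.70.

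Assembly factors numbered 38 with values, of which 0 passed and the median difference was -0.05. Timmdc1, which helps assemble the membrane arm of complex I, was at 3.09 and 2.92 in MN, against 3.61 and 3.55 in control, without overlap (-0.57 ± 0.15; limma, adjusted p = 0.543). Coa3, a complex IV assembly factor, was at 5.81 and 5.96 in MN, against 5.92 and 5.25 in control (0.30 ± 0.27), and the difference was -0.03 without control replicate 2. Cox10, which makes heme for complex IV, was at 0.23 ± 0.15. Among 13 electron carriers and their makers, 0 passed and the median was -0.07; Coq3, an enzyme of ubiquinone synthesis, was well above background only on the control arrays and was at least 1.41-fold lower in MN (limma, adjusted p = 0.665). That bound takes the dimmest detected signal of each MN array in place of its level there, while the adjusted p is of the measured levels. Cycs, cytochrome c, was at -0.15 ± 0.16 and Etfdh, which passes electrons from fatty acid oxidation to ubiquinone, at -0.27 ± 0.13.

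Regulators, the tricarboxylic acid cycle and glycolysis were near the median of all genes. Among 16 regulators of mitochondrial biogenesis 0 passed and the median was -0.04. Of the 16, 7 were above 0 and 9 below. Ppargc1a, the coactivator PGC-1 alpha, was at 3.63 and 3.64 in MN, against 3.68 and 3.22 in control (0.18 ± 0.21). Its difference was -0.05 within slide 1 and 0.41 within slide 2, which holds the lower control value. The largest difference of the list was that of Ppargc1b at -0.46 ± 1.15, and the highest was that of Esrrb, an estrogen-related receptor, at 0.27 ± 0.13. Medians were -0.07 for 17 enzymes of the tricarboxylic acid cycle, -0.04 for 17 of glycolysis, -0.02 for 6 uncoupling proteins and carriers and -0.09 for 18 genes of quality control and import, and 0 of these passed. Dlat, a subunit of pyruvate dehydrogenase, was at -0.18 ± 0.16, Aldoc, a glycolytic aldolase, at -0.22 ± 0.16, Ucp3 at 0.11 ± 0.14 and Opa1, which fuses inner membranes, at -0.24 ± 0.17.

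**Figure D5:**
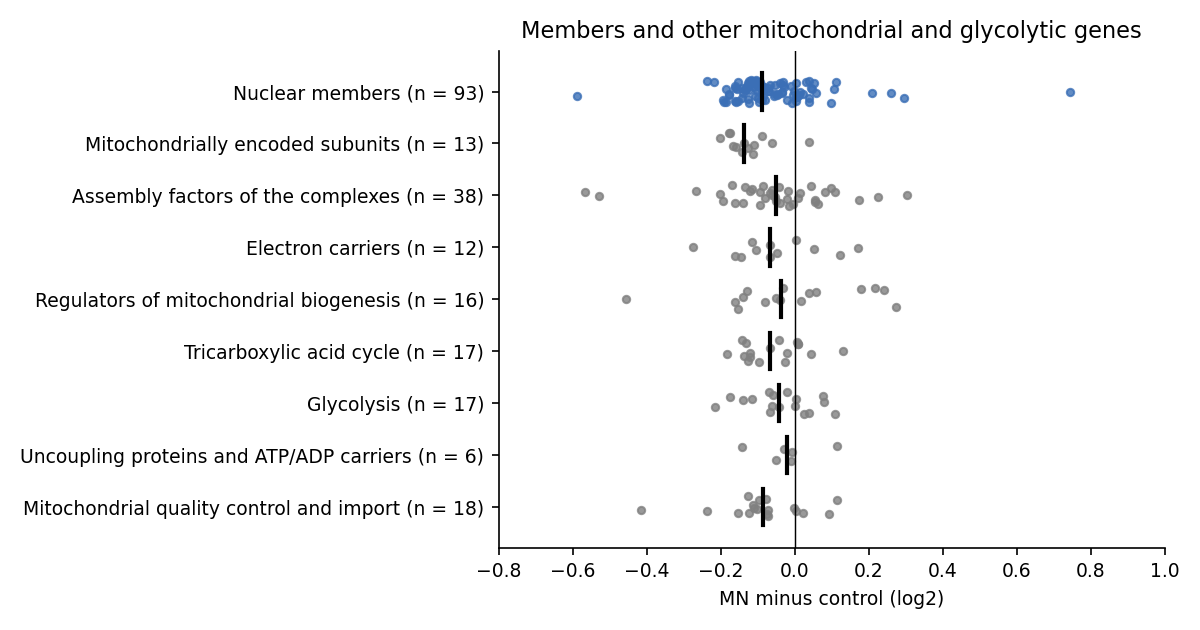
Difference between MN and control on the log2 scale, with 1 point per gene, for the 93 nuclear members (top row, blue) and 8 further lists (grey); black bars are the medians and the vertical scatter within a row carries no value. Coq3, for which there is only a bound, is left out. List medians run from -0.14 for the mitochondrially encoded subunits to -0.02 for the uncoupling proteins and carriers.

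Cell types that hold many of the kidney's mitochondria were described by their markers, and beside them other cell types and proliferation. The 15 proximal tubule markers had a median difference of -0.04 and a median slide difference of 0.30, and 0 passed the test. Their summed linear level was 1590 and 2132 on MN arrays 1 and 2, against 1479 and 2581 on control arrays 1 and 2. The 7 markers of the thick ascending limb and distal convoluted tubule had a median difference of -0.04. Collecting duct markers were at a median of -0.09, podocyte markers at 0.60, erythroid markers at 0.61, proliferation markers at 0.77 and plasma cell markers at 1.19, with 0 passing in any of these lists. The part of these cell types in the members' values was not tested.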

How the data were processed

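Per the file headers, the authors' deposited scanner files give linear spot intensity from Agilent Feature Extraction 10.5.1.1, with background subtracted and surrogate values for dim spots. The deposited value table holds log2 values of unstated making, with replicate columns exchanged relative to the scanner files; only an alternative used it, and slides follow the scanner files. Levels were log2 processed signal scaled to the 75th percentile of each array. Probes had to be well above background on every array of 1 group or more, and a gene's brightest probe stood for it. All 25296 genes were fitted with limma 3.58.1 in R 4.3.3 (lmFit, eBayes, two-sided, Benjamini-Hochberg, threshold 0.05, prior df 1.99). The fit was tested on simulated data with independent arrays and no slide difference, so that test cannot speak to a shared slide. Same-numbered arrays, which share slide and scan, correlated in their deviations from group means (r = 0.626 over genes, 2 pairs). Alternatives changed background correction, scaling, filter, probe, variance model, block and samples. Named members were core subunits, alternative forms, the 3 largest differences per direction and complex, those at an unadjusted p under 0.05, dim members and non-subunits. Of each list, up to 4 genes were named by size. Not all of these are printed, and some printed list genes, Ppargc1a among them, were not picked by size. Members, lists and rules were chosen with earlier results of these data known. The number of arrays limits precision.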

Additional observations from a re-analysis of the deposited data

How the results depend on the processing

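The number of members that passed was 0 under each alternative run, the fits without 1 array included. The number of genes passing over the whole array was 5, and it was 15 with normexp background correction, 20 with quantile normalization, 11 when arrays were scaled to the detected probes' median, 16 with an intensity trend in the variance model, 22 at a threshold of 0.1, and 0 without the filter, with probes required to be well above background on all arrays, with slide as a replicate block (smallest adjusted p 0.058), and without each array in turn. The replicate block changed no call of a member. With 1 array left out in turn, the members' median ran from -0.26 to 0.13, and the medians of complexes I to V ran from -0.24 to 0.10, from -0.19 to 0.10, from -0.25 to 0.17, from -0.31 to 0.13 and from -0.40 to 0.27. The cause was not tested. Among 56 named members with values, 872 of 896 values under alternatives moved by less than the spread between replicates and 24 by more. That count cannot measure stability. Some alternatives, such as the variance trend and the replicate block, leave a difference unchanged by construction. The spread between replicates also holds the slide difference. Kept to annotated subunits, an alternative chosen after seeing the data, the members' median was -0.09. Without the block, the slides' spread enters the error of complex V, whose median SE was 0.33, against 0.11 with the replicate block.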
